A study of Mus musculus with 8 samples.

Results

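The response of scramble 4T1 cells to an antibody against the IL-6 receptor was followed by comparing the 2 libraries of scramble + anti-IL-6R with the 2 libraries of scramble + IgG, which are 4 of the 8 RNA-sequencing libraries of the series. Genes were kept where more than 1 CPM, a count scaled to the size of its library, was present in at least 2 of these 4 libraries, which left 12207 of 54532 genes. 4T1 is a triple-negative mammary carcinoma line from the BALB/c mouse. Both groups carried a stably integrated, non-targeting scramble shRNA and were grown under puromycin selection. One group received an antibody against mouse IL-6R at 100 ng/ml for 48 h and the other a control IgG. The remaining 4 libraries came from cells with an shRNA that targets MCT-1, called shMCT-1 here, under the same treatments, and they served here for the estimate of the spread and for a test of whether the response differed between the backgrounds. The series describes its replicates as independent biological ones, but no source used here says whether the scramble cells were a single clone or whether IL-6 was added to the medium. The question was which transcripts of cells with normal MCT-1 levels differ when the IL-6 receptor is blocked.

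IL-6 binds its receptor IL-6Rα, either on the cell surface or as a soluble form shed by ADAM10 and ADAM17, and the pair recruits gp130 (encoded by Il6st), the chain that signals. gp130 activates JAK kinases, which phosphorylate STAT3, and STAT3 in turn induces genes such as Socs3, the main feedback inhibitor of gp130. LIF, oncostatin M, IL-11, CNTF and CLCF1 also signal through gp130 but bind other ligand-specific chains. An antibody that keeps IL-6 from IL-6Rα leaves gp130 open to those other cytokines. Receptor occupancy and STAT3 phosphorylation were not measured by these libraries.

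Levels are given as CPM after TMM scaling, a correction for library composition, in the order IgG replicate 1, IgG replicate 2, anti-IL-6R replicate 1 and anti-IL-6R replicate 2. Fold changes are log2 values of anti-IL-6R over IgG from edgeR's quasi-likelihood fit, with their SE or 95% interval, and they are differences, not levels. The totals of these 4 libraries were between 24100084 and 33063570 counts, which sets the counting precision of genes near 1 CPM. Of the 22 epithelial markers listed, 15 passed the filter, with Krt8 and Cdh1 among them, while Krt5, Tfap2c and the progesterone receptor gene Pgr were at 0 counts in all 4 libraries. Of the 20 leukocyte markers, 11 were at 0 and 14 at 3 counts or fewer in every library, among them Ptprc, which marks all leukocytes. Only 3 leukocyte markers passed the filter, 1 higher and 2 lower with anti-IL-6R. The treatments did not overlap for all 3 (100%), beside 30.3% of all tested genes, and 0 had an unadjusted p under 0.05 in edgeR. The leukocyte list summed to 22.9 to 25.8 CPM and the fibroblast list to 17.3 to 18.9 CPM. In both sums the treatments overlapped.

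One of the 4 libraries stood apart. IgG replicate 2 had the smallest total, and its log2 CPM values differed from those of IgG replicate 1 with an SD of 0.362 over genes. It differed from both anti-IL-6R libraries by a similar amount (SD 0.359 and 0.344). Among the other 3 libraries the SDs were 0.217, 0.239 and 0.232, so that IgG replicate 1 lay as close to the anti-IL-6R libraries as these lay to each other. The difference between the IgG replicates held 49.1% of the sum of squares among the 4 libraries, the treatment 30.9% and the difference between the anti-IL-6R replicates 20.1%. IgG replicate 2 was the highest or the lowest of the 4 libraries for 9221 genes, compared with 4676 to 5388 genes for each of the others.

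The separation followed the length and the base composition of the transcripts. For the fifth of genes with the shortest transcripts (up to 1775 bases), the median log2 difference of IgG replicate 2 from the mean of the other libraries was -0.11, and for the longest it was 0.01. For the fifth with the lowest GC content it was 0.11 and for the fifth with the highest it was -0.10. The treatment contrast ran the opposite way over GC content, from -0.06 in the lowest bin to 0.06 in the highest, and without IgG replicate 2 the same medians were -0.01 and 0.01. Over length the contrast was 0.03 in the shortest bin and 0.02 in the longest. Without IgG replicate 2 it was -0.02 and 0.04, so a difference over length remained in that setting. IgG replicate 1 itself ran from 0.06 at the shortest to -0.04 at the longest transcripts. The results below are therefore given with and without IgG replicate 2, and the part of RNA quality or library preparation in this pattern was not tested.

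**Figure D1:**
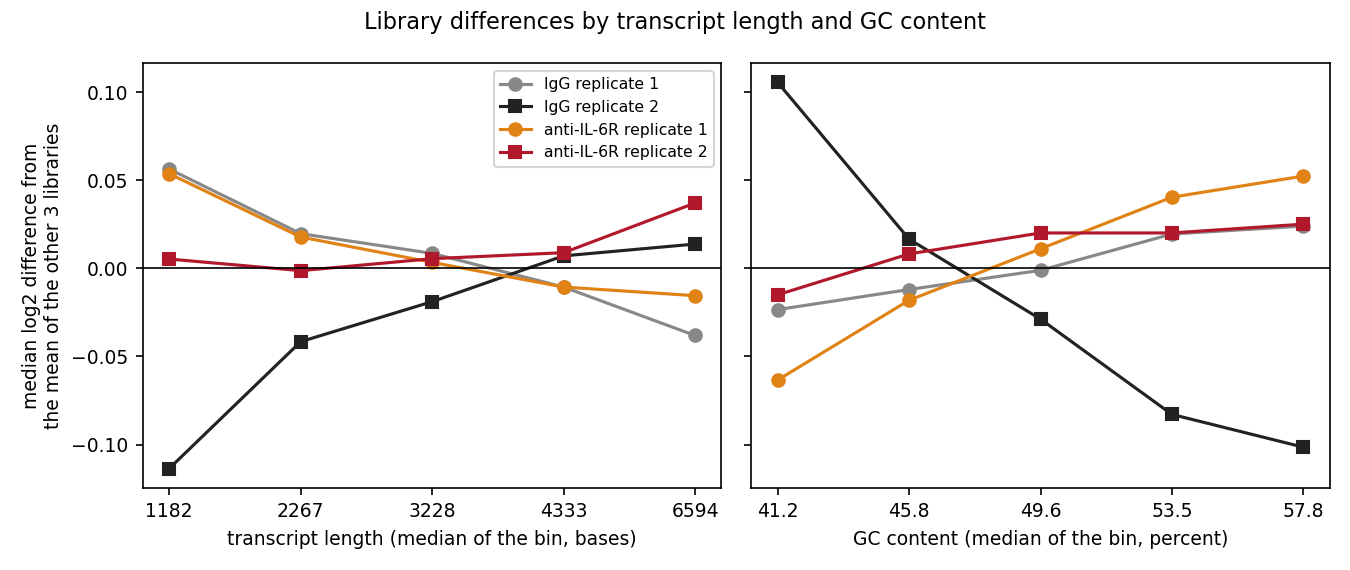
Median log2 difference of each scramble library from the mean of the other 3 (vertical axis), over 5 bins of genes by transcript length in bases (left) and by GC content in percent (right), with each bin at its median. IgG replicate 2 runs from -0.11 at the shortest to 0.01 at the longest transcripts and from 0.11 at the lowest to -0.10 at the highest GC content.

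No gene passed an adjusted p of 0.05 between anti-IL-6R and IgG in scramble cells (0.0% of 12207 tested genes, edgeR's quasi-likelihood test with Benjamini-Hochberg adjustment), and the smallest adjusted p was 0.999. At an unadjusted p under 0.05 there were 140 genes, 1.15% of those tested, of which 52 were higher (0.426%) and 88 lower (0.721%), while 5% of the tested genes would be 610. DESeq2 also called 0 genes, with 94 at an unadjusted p under 0.05, whereas edgeR's exact test on the 4 libraries called 10, with 204 at an unadjusted p under 0.05. These 10 are described further on. Without IgG replicate 2, 57 genes had an unadjusted p under 0.05 (0.467%) and 0 were called. Without anti-IL-6R replicate 1 or 2 there were 47 (0.385%) and 61 (0.5%), with 0 called. Without IgG replicate 1, so that IgG replicate 2 alone stood for the control, 1889 genes had an unadjusted p under 0.05 (15.5%) and 14 were called (0.115%).

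The intervals bounded the response for most genes. The 95% interval of the fold change lay within 1.5-fold in either direction for 9508 genes (77.9%) and within 2-fold for 11363 genes (93.1%). The median SE was 0.12 on the log2 scale, and 90% of the estimates lay between -0.24 and 0.25. The groups did not overlap for 3699 genes, 30.3% of those tested, with anti-IL-6R higher for 2159 (17.7%) and lower for 1540 (12.6%). Lower RNA per cell and fewer cells with a transcript cannot be told apart in such bulk libraries.

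**Figure D2:**
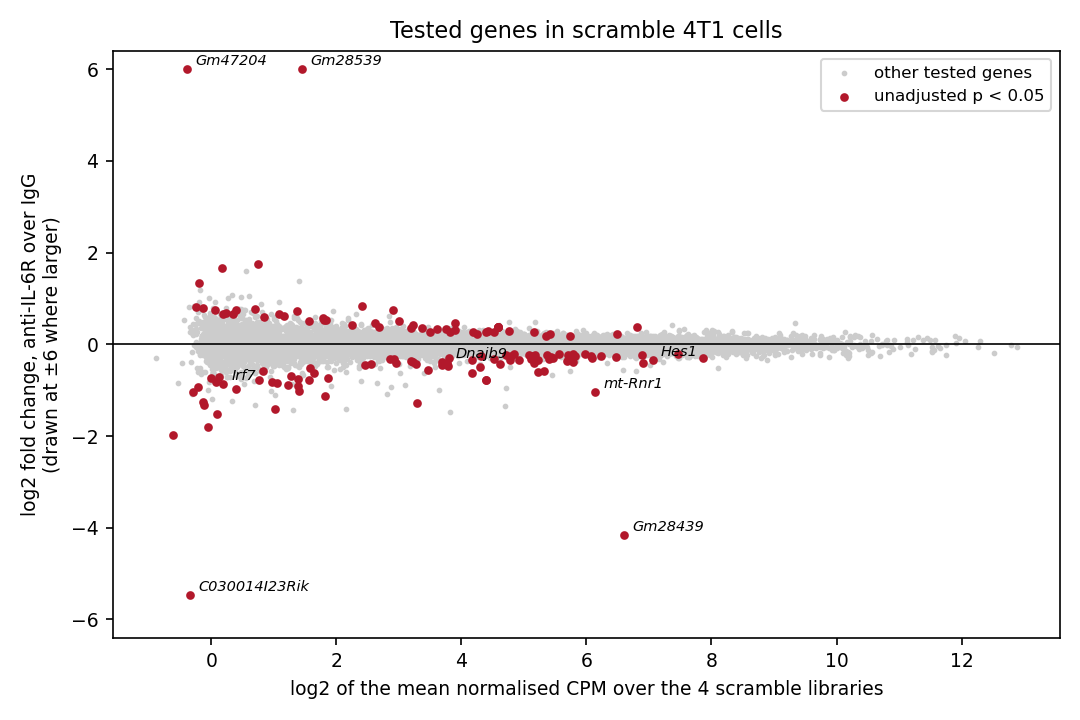
Log2 fold change of anti-IL-6R over IgG (vertical axis, drawn at ±6 where larger) against the log2 of the mean normalised CPM over the 4 scramble libraries for the 12207 tested genes, with the 140 genes at an unadjusted p under 0.05 in red. The named points include Dnajb9 and Hes1 near 0 and, farther away, Gm28439, Gm28539, Gm47204 and C030014I23Rik, which share sequence with other gene models.

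Transcripts of the receptor itself were present at closely similar levels with and without the antibody. Il6ra, on chromosome 3 from 89864059 to 89913196 in GRCm38, stood at 24.3, 25.8, 24.8 and 27.7 CPM. Il6st, which encodes gp130, stood at 216, 227, 225 and 233 CPM. Both genes overlapped between the treatments, with log2 fold changes of 0.07 ± 0.16 (SE) for Il6ra and 0.05 ± 0.12 for Il6st. The interval of Il6ra ran from 0.825-fold to 1.33-fold and that of Il6st from 0.853-fold to 1.25-fold. Per kilobase of the longest annotated transcript, Il6st was at 26 and Il6ra at 2.97 CPM per kb over the 4 libraries.

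The ligand was near the limit of detection. Il6 had 12, 8, 10 and 17 counts, under 1 CPM in each library, and did not enter the test. Other ligands that use gp130 were abundant. Lif, whose product signals through LIFR and gp130, stood at 113, 110, 111 and 106 CPM, and its log2 fold change was -0.03 ± 0.09. Clcf1, a cardiotrophin-like cytokine, stood at 118, 111, 107 and 122 CPM, with a log2 fold change of -0.00 ± 0.14. Per kilobase, Clcf1 was at 32.3, Lif at 27.3 and Il6 at 0.167 CPM per kb.

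The receptors that these ligands need were unevenly present. Lifr, the LIF receptor chain, had 0, 1, 0 and 0 counts, and Cntfr, the CNTF receptor, 2 to 5 counts. Osmr, the oncostatin M receptor chain, stood at 10.3, 12.6, 9.98 and 12.1 CPM, while its ligand gene Osm had at most 1 count. Il11 stood at 1.06, 0.494, 0.910 and 1.12 CPM, with IgG replicate 2 the lowest. Adam17, the sheddase of IL-6Rα, stood at 110, 126, 112 and 118 CPM. Of the 20 genes listed for IL-6 family ligands, receptors and sheddases, 12 were tested and 0 had an unadjusted p under 0.05. Their median log2 fold change was -0.02, or -0.05 without IgG replicate 2, beside 0.01 for all tested genes. For 8 of the 12 the 95% interval lay within 1.5-fold, and 1 of the 12 (8.33%) did not overlap between the groups, beside 30.3% of all tested genes. That gene was Cntf, at 2.40, 2.06, 1.91 and 1.83 CPM.

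**Figure D3:**
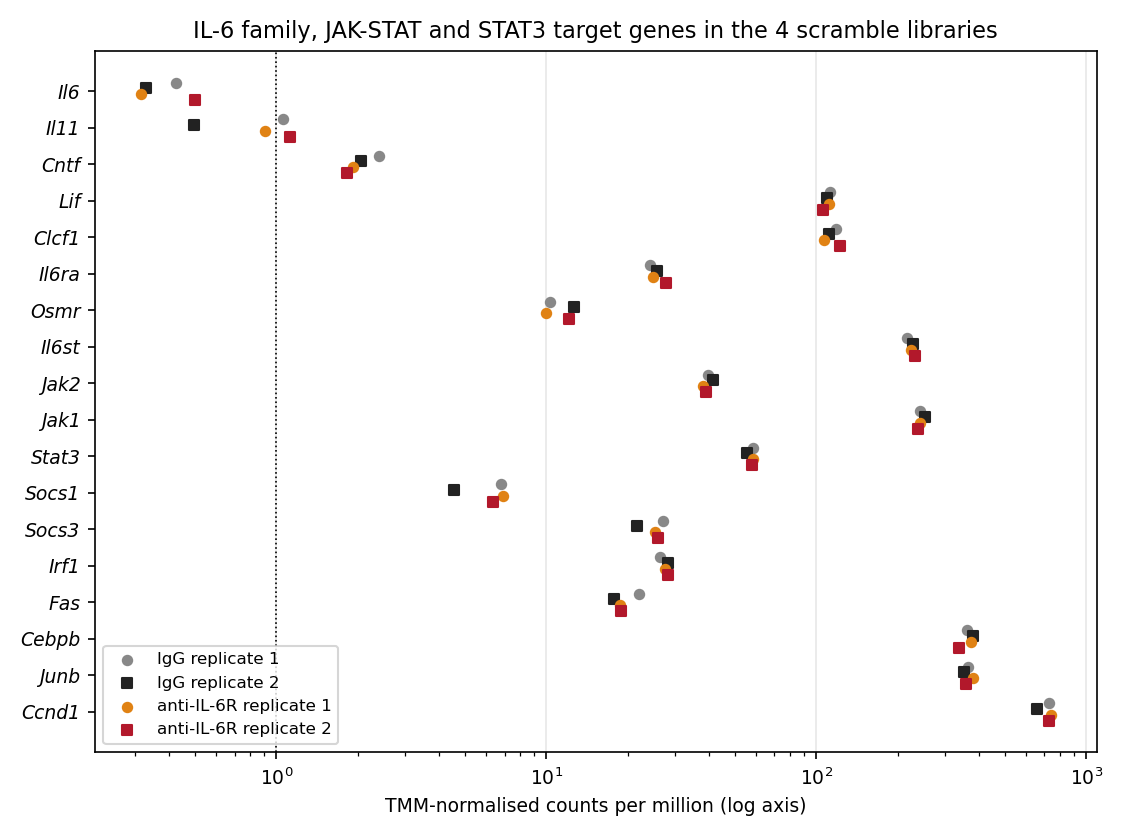
Normalised CPM (logarithmic horizontal axis) of genes of the IL-6 family, the JAK-STAT cascade and STAT3 targets in each of the 4 scramble libraries, with the dotted line at 1 CPM. The points of anti-IL-6R and IgG lie on or beside each other for most genes, Il6 lies under 1 CPM in all libraries, and IgG replicate 2 is the lowest point for Il11, Socs1 and Socs3.

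Downstream of the receptor, the kinases and Stat3 also lay close together. Jak1, a kinase bound to gp130, stood at 242, 252, 242 and 239 CPM and Jak2 at 39.8, 41.5, 38.0 and 39.1 CPM. In both, the IgG libraries were the higher ones (-0.04 ± 0.10 and -0.08 ± 0.16). Stat3 stood at 58.1, 55.2, 58.4 and 58.0 CPM, with a log2 fold change of 0.04 ± 0.11 and an interval from 0.873-fold to 1.21-fold.

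Socs3 is the gene most directly tied to gp130 signaling, and a window before its RefSeq start is shown because it carries a STAT-type match. The GENCODE M21 model of Socs3, used for the positions here, starts farther upstream, at 117970047. The window therefore lies inside that gene model, and whether it acts as a promoter was not tested. The 250 bases before the RefSeq start of Socs3, chr11:117969367-117969616 on the minus strand of GRCm38.p6, are printed 5′ to 3′ with the match to TTCNNNGAA in capitals.

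Socs3: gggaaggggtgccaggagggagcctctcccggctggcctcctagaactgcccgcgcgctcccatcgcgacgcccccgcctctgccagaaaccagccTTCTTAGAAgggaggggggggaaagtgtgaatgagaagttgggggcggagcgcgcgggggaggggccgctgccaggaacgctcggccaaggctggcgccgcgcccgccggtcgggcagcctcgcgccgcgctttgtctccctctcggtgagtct

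The match lies 154 to 146 bases before the RefSeq start. TTCNNNGAA reads the same on both strands, and it occurs in 8.30% of the 32851 RefSeq promoter windows, which reach from 250 bases before to 50 bases after a start. Socs3 stood at 27, 21.8, 25.2 and 25.9 CPM, so that both anti-IL-6R libraries lay between the IgG libraries. Its log2 fold change was 0.07 ± 0.11, with an interval from 0.878-fold to 1.25-fold, and -0.08 without IgG replicate 2. Symbols linked 8769 tested genes to a promoter window. The 705 of them with the motif had a median log2 fold change of 0.01, the same as the 8064 without it (0.01). An unadjusted p under 0.05 was found for 4 of the 705 (0.567%), beside 1.15% of all tested genes.

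Other inhibitors of the cascade showed no call. Socs1 stood at 6.77, 4.56, 6.94 and 6.34 CPM (log2 fold change 0.22 ± 0.23). Ptpn2, a phosphatase that acts on JAK kinases and STAT proteins, stood at 41.8, 57.8, 43.7 and 40.6 CPM. The single high library was IgG replicate 2, and the log2 fold change of -0.24 ± 0.14 became 0.01 without it. Ptpn11, the SHP2 phosphatase bound by gp130 and the gene of this list with the highest CPM, stood at 283, 271, 288 and 291 CPM. All 29 genes listed as JAK-STAT components and inhibitors were tested, and 0 had an unadjusted p under 0.05. Their median was 0.02 (-0.00 without IgG replicate 2), and the interval lay within 1.5-fold for 27 of the 29 and within 2-fold for all 29. The groups did not overlap for 12 of the 29 (41.4%), beside 30.3% of all tested genes.

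Genes listed as STAT3 targets, with no direction of regulation set for each, behaved in the same way. Of 44 listed targets, 34 were tested and 0 had an unadjusted p under 0.05, with 15 higher and 19 lower, while 54.2% of all tested genes were higher. Their median was -0.01, or -0.04 without IgG replicate 2, and the interval lay within 1.5-fold for 32 of the 34. Ccnd1, the cyclin D1 gene and the most abundant of them by CPM, stood at 726, 659, 741 and 730 CPM (0.09 ± 0.09). Mcl1, which encodes an anti-apoptotic BCL2 relative, stood at 212, 240, 206 and 206 CPM. The log2 fold change was -0.13 ± 0.09, or -0.04 without IgG replicate 2.

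Junb, an AP-1 subunit, stood at 366, 352, 380 and 359 CPM, and Irf1, an interferon-response factor, at 26.3, 28.2, 27.6 and 28.2 CPM. Neither separated the treatments. Fas, which encodes a death receptor, stood at 22.1, 17.8, 18.7 and 19 CPM, with IgG replicate 1 as the high library. Its log2 fold change of -0.08 ± 0.12 became -0.23 without IgG replicate 2 and 0.09 without IgG replicate 1. The acute-phase gene Lcn2 stood at 28.1, 18.8, 26.8 and 25.3 CPM, and its log2 fold change of 0.15 ± 0.21 became -0.11 without IgG replicate 2. Only 4 of the 25 acute-phase genes listed passed the filter, and 14 of the 25 had 3 counts or fewer in each of the 4 libraries.

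**Figure D4:**
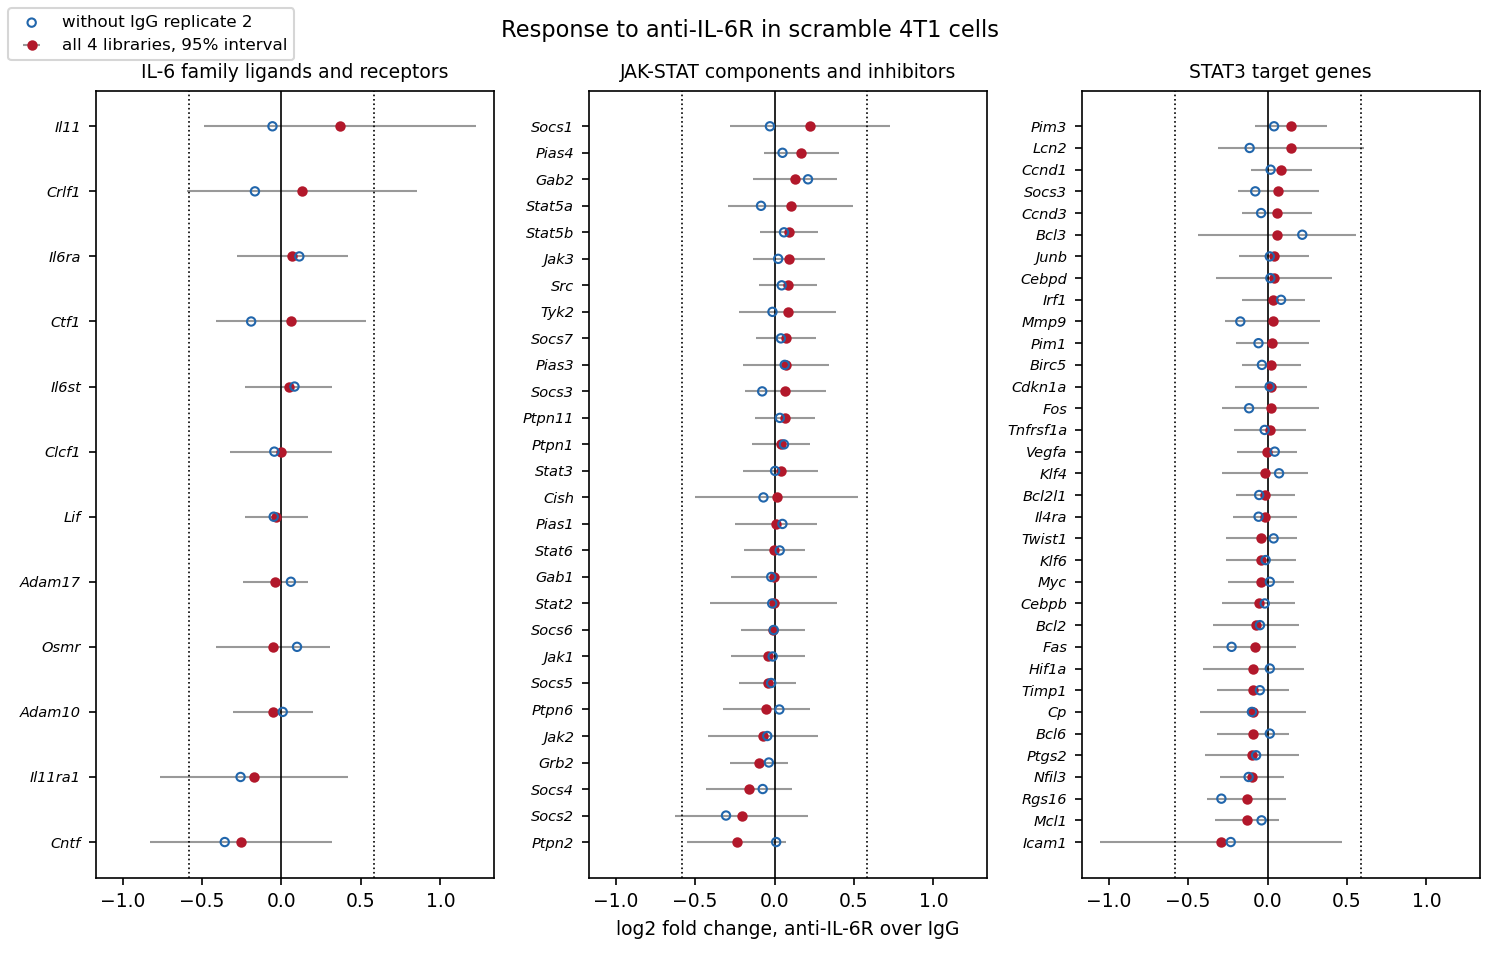
Log2 fold change of anti-IL-6R over IgG (horizontal axis) for tested genes of 3 lists, with 95% intervals from all libraries (red) and the estimate without IgG replicate 2 (blue rings). Dotted lines mark 1.5-fold in either direction, and every interval shown includes 0.

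Some genes had also been followed by RT-PCR in this study. Of those tested here, Dnajb9 and Hes1 had an unadjusted p under 0.05, with both treated libraries under both control libraries. The study took both to RT-PCR from genes shared by its own RNA-sequencing contrasts, which included anti-IL-6R against IgG in each background. Their values here and in shMCT-1 cells are therefore not independent of that choice. By RT-PCR the study reports both genes as lower with anti-IL-6R and with shMCT-1. Dnajb9, a co-chaperone of the endoplasmic reticulum on chromosome 12 (44205559 to 44210326), stood at 14.9, 16.2, 10.7 and 12.9 CPM. Its log2 fold change was -0.40 ± 0.15 (unadjusted p = 0.0213, adjusted p = 0.999, edgeR), -0.34 without IgG replicate 2 and -0.46 without IgG replicate 1. In shMCT-1 cells the same contrast gave -0.46 ± 0.16, and the difference between the backgrounds had an unadjusted p of 0.803 (edgeR). Of 39 tested genes for ER chaperones and the unfolded protein response, Dnajb9 was the 1 with an unadjusted p under 0.05. That is 2.56% of the list, beside 1.15% of all tested genes. The groups did not overlap for 15 of the 39 (38.5%), 10 higher and 5 lower, beside 30.3% of all tested genes. The list median was -0.01, and Hspa5, the BiP chaperone that binds Dnajb9's product, stood at 1803, 1805, 1799 and 1769 CPM. Trib3, a stress-induced pseudokinase, was on the other side at 48.5, 41.9, 55.1 and 52.4 CPM (0.25 ± 0.11, unadjusted p = 0.0526, adjusted p = 0.999 in edgeR, and 0.15 without IgG replicate 2).

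Hes1, a Notch-induced repressor on chromosome 16 (30064384 to 30067796), stood at 144, 156, 129 and 106 CPM. Its log2 fold change was -0.35 ± 0.14 (unadjusted p = 0.0358, adjusted p = 0.999, edgeR), -0.29 without IgG replicate 2 and -0.41 without IgG replicate 1. The contrast in shMCT-1 cells was -0.39 ± 0.15, and the difference between the backgrounds had an unadjusted p of 0.844 (edgeR). Dll4, a Notch ligand of low level, was the other member of the Notch list at an unadjusted p under 0.05, on the opposite side at 2.15, 1.36, 2.7 and 2.71 CPM. The log2 fold change of 0.61 ± 0.26 became 0.33 without IgG replicate 2, and in shMCT-1 cells it was -0.02 ± 0.23. Over the 28 tested Notch receptors, ligands and targets the median was 0.05, or 0.01 without IgG replicate 2.

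The other RT-PCR genes differed by less. Myc stood at 546, 591, 550 and 553 CPM (-0.04 ± 0.09), Areg, an EGFR ligand, at 150, 154, 141 and 139 CPM (-0.12 ± 0.08) and Epcam, an epithelial adhesion molecule, at 4.58, 4.03, 4.83 and 3.65 CPM (-0.03 ± 0.15). Ccn2, a YAP target that encodes a matricellular protein, stood at 30.6, 30.8, 26.5 and 27.2 CPM. Its log2 fold change was -0.20 ± 0.10 in scramble and 0.23 ± 0.10 in shMCT-1, and the difference had an unadjusted p of 0.0132 and an adjusted p of 1.00 in edgeR. Mcts1, which encodes MCT-1 and was not targeted in these cells, stood at 14.9, 11.7, 12.6 and 13.1 CPM. Cd274, which encodes PD-L1, had 6, 9, 10 and 11 counts and Ppbp, which encodes CXCL7, was also under 1 CPM in each library, so neither was tested.

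Genes of growth and of the immune dialogue were then read by list. In the 65 genes of G2/M and mitosis, 0 had an unadjusted p under 0.05, 39 were lower and 26 higher, with a median of -0.03. Without IgG replicate 2 the median was 0.02 and 43 were higher. The library medians of this list, each relative to the mean of the 4 libraries, were -0.03, 0.06, -0.03 and -0.01, so that IgG replicate 2 was the high one. Mki67, which encodes the proliferation antigen Ki-67, showed the same order at 861, 1097, 920 and 963 CPM. The 62 genes of DNA replication and S phase had a median of -0.00, and the interval of all 62 lay within 1.5-fold.

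The NF-κB targets (27 tested) had a median of -0.02 and the immediate-early genes (30 tested) one of -0.03, with 0 and 1 members at an unadjusted p under 0.05. The neutrophil chemokine genes Cxcl5 and Cxcl1 stood at 291, 260, 259 and 245 CPM and at 261, 315, 262 and 250 CPM. Neither had an unadjusted p under 0.05. Dusp1, which encodes a phosphatase of MAP kinases, stood at 38.3, 39.6, 34.4 and 32.1 CPM (-0.23 ± 0.10, unadjusted p = 0.0460, adjusted p = 0.999 in edgeR), and Jun, the AP-1 subunit, at 316, 349, 288 and 283 CPM (-0.22 ± 0.10). In both genes, which had the smallest p of the immediate-early list, each treated library lay under each control library. The groups did not overlap for 8 of the 30 genes of that list (26.7%), beside 30.3% of all tested genes. Jun had an unadjusted p of 0.0644 in edgeR. Without IgG replicate 2, Dusp1 was at -0.20 and Jun at -0.15. Among 21 tested interferon-stimulated genes the single one at an unadjusted p under 0.05 was Irf7, a regulator of interferon genes, at 1.52, 1.44, 0.659 and 0.943 CPM (-0.88 ± 0.36). The median of that list was 0.02, or -0.03 without IgG replicate 2.

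In all, 7 genes of the 32 lists had an unadjusted p under 0.05, and 26 lists held none. The lists with such genes held 1 or 2 each, between 2.0% and 7.14% of their tested members. Over all tested genes the share was 1.15%. Besides those already named, the 7 genes were Cyp2c55, a cytochrome P450 gene at 1.34, 1.52, 2.35 and 1.97 CPM (0.60 ± 0.21), and Hist1h3h, a histone H3 gene at 4.51, 4.61, 2.64 and 2.83 CPM (-0.74 ± 0.31). Cyp2c55 was -0.35 ± 0.17 in shMCT-1 cells, and its difference between the backgrounds had an unadjusted p of 0.00631 and an adjusted p of 1.00 in edgeR. Histone transcripts mostly lack poly(A) tails, and few of them are captured from poly(A)-selected RNA. The histone list summed to 271 to 309 CPM and had a median of -0.15, which became -0.31 without IgG replicate 2, and IgG replicate 1 was the high library (0.23 relative to the mean, beside -0.07, -0.04 and -0.12).

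Lists of short, abundant transcripts moved with IgG replicate 2. Cytosolic ribosomal protein genes were higher for 66 of 77 tested members, with a median of 0.10, yet 0 of them had an unadjusted p under 0.05 and 6 of them (7.79%) did not overlap between the groups, beside 30.3% of all tested genes. Their library medians were 0.10, -0.22, 0.09 and 0.03, and without IgG replicate 2 the median was -0.03 with 10 members higher. Rps29, with a short transcript, stood at 775, 313, 780 and 725 CPM, and Rpl39 at 228, 107, 224 and 195 CPM. Nuclear-encoded genes of the respiratory chain had a median of 0.08, which became -0.03, and Cyc1, which encodes cytochrome c1, stood at 134, 91.0, 139 and 130 CPM. The 13 mitochondrially encoded protein genes were on the other side at -0.15, which became 0.02. In 13 of the 32 lists the median changed its sign when IgG replicate 2 was left out.

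**Figure D5:**
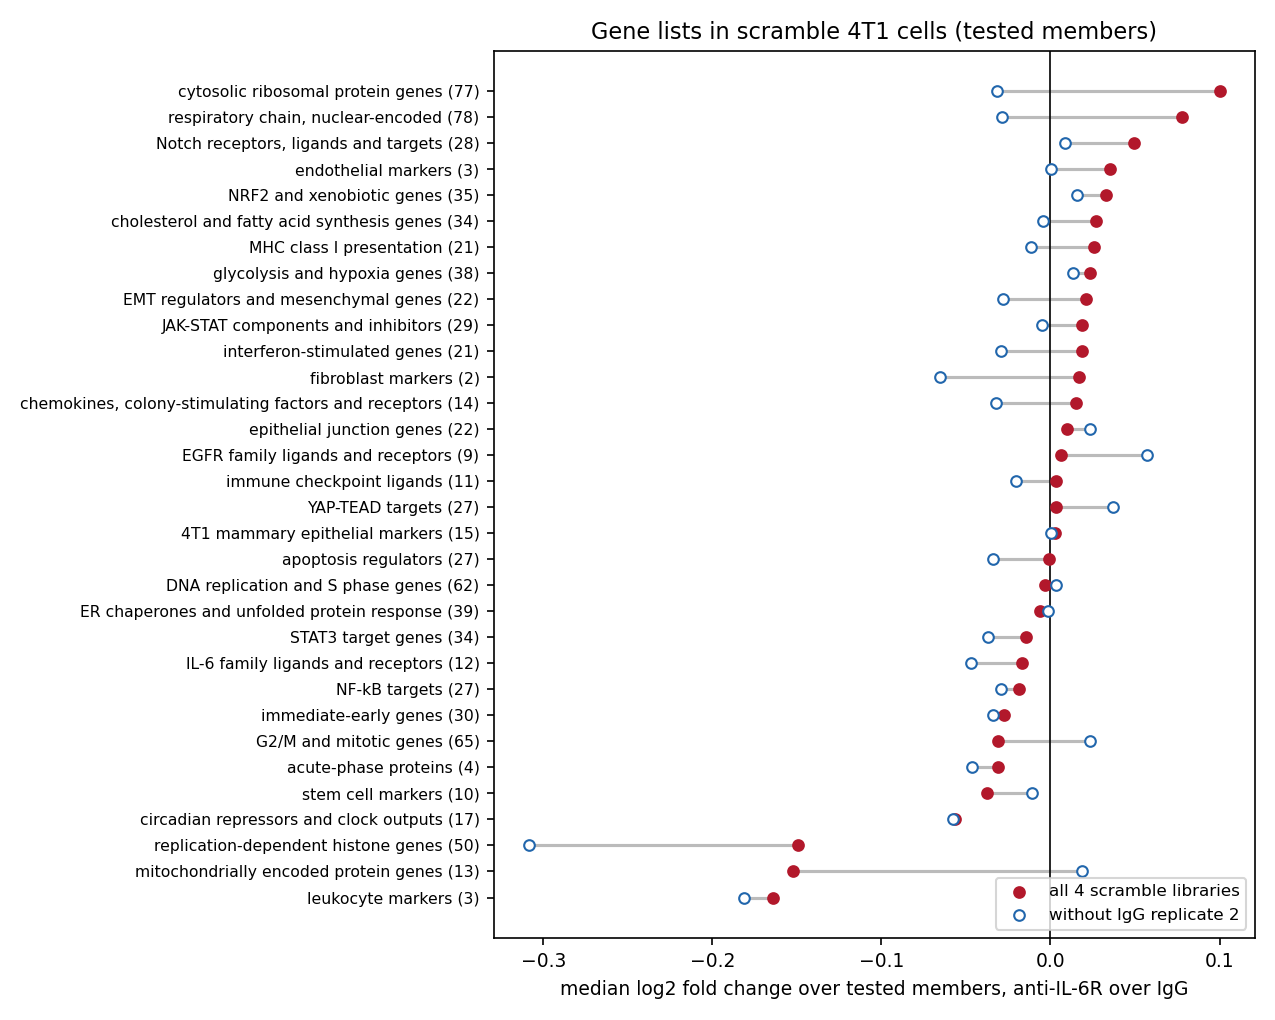
Median log2 fold change of anti-IL-6R over IgG (horizontal axis) over the tested members of each of 32 gene lists, whose number is in brackets, from all libraries (red) and without IgG replicate 2 (blue rings). The medians of 27 lists lie within 0.06 of 0, and the ribosomal protein list moves from 0.10 to -0.03.

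Beyond the lists, the 10 higher and 10 lower genes with the smallest unadjusted p were taken among genes of at least 5 CPM and no overlap. They had adjusted p-values of 0.999 each (edgeR, with the filter). Ubtd1, a ubiquitin-domain gene, stood at 13.1, 13.3, 17.1 and 15.9 CPM (0.32 ± 0.10, and 0.33 without IgG replicate 2). March2, which encodes a membrane-bound ubiquitin ligase, stood at 9.55, 8.59, 11.4 and 11.9 CPM (0.36 ± 0.12). Gnb1l, Dnajc22 and Fbxo7 followed with log2 fold changes of 0.51, 0.27 and 0.27, which became 0.31, 0.16 and 0.17 without IgG replicate 2. The remaining higher ones were the processed pseudogenes Gm10335, Gm4813, Gm10420 and Gm10169 and Nutf2-ps1, a retrogene copy of Nutf2. Gm10169 and Gm10420 were at 2.06 and 3.21 CPM in IgG replicate 2 and between 5.53 and 9.45 CPM in the other libraries. Without IgG replicate 2 the log2 fold change went from 0.84 to 0.31 for Gm10169, from 0.75 to 0.27 for Gm10420 and from 0.47 to 0.21 for Nutf2-ps1. Several of the higher models share 31-base words with other genes, and their counts were added to those of their partners. The treatments overlapped in these sums for March2 with Hnrnpm (466, 679, 487 and 489 CPM), for Gm10335 with Rpl23a and its copies (1166, 1036, 1142 and 1111 CPM) and for Nutf2-ps1 with Nutf2 and its copies (238, 213, 244 and 233 CPM). The partners held most of these counts, so the sums cannot show whether the smaller models changed.

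Of the lower ones, Vps51, a subunit of a tethering complex for endosomes, stood at 13.1, 13.2, 8.13 and 9.79 CPM (-0.55 ± 0.17, and -0.54 without IgG replicate 2). It shares 16.3% of its 31-base words with other genes, mainly Tm7sf2. Vps51 and Tm7sf2 together stood at 46.1, 35.3, 41.9 and 41.5 CPM, so that the treatments overlapped in the sum. Tm7sf2 had more counts than Vps51 in each library (936, 538, 1077 and 1076). The sum therefore cannot show whether Vps51 itself differed. Ogfrl1 stood at 6.52, 7.03, 4.99 and 5.07 CPM (-0.43 ± 0.13). Clk4, a kinase of splicing factors, stood at 31.3, 36.4, 25.5 and 28.2 CPM (-0.33 ± 0.11, and -0.22 without IgG replicate 2). These genes were picked for no overlap, so leaving out either control library could hardly change their sign. Zfp979, 4921524J17Rik, Gm5148, Gm16580 and the unnamed ENSMUSG00000051412 had log2 fold changes between -0.63 and -0.34, with IgG replicate 2 the highest library in each. Without that library Gm5148 was at -0.27, 4921524J17Rik at -0.19, Zfp979 at -0.19, Gm16580 at -0.24 and ENSMUSG00000051412 at -0.23. Summed with its partners, Zfp979 kept the treatments apart (43.8, 52.2, 39.2 and 37.2 CPM), as did 4921524J17Rik (23.8, 32.5, 21.1 and 20.6 CPM). Their partners held fewer counts than the genes themselves. For Gm5148 and Gm16580 the treatments overlapped in such sums, in which the partners held most counts.

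Gm28439, also among the 10 lower genes, is described further on. The last of the 10 was mt-Rnr1, the mitochondrial 12S ribosomal RNA (chromosome M, 70 to 1024). It stood at 97.4, 93.1, 44.9 and 47.1 CPM, so that the spread between replicates was small beside the gap between the treatments. The log2 fold change was -1.05 ± 0.34 (unadjusted p = 0.0110, adjusted p = 0.999 in edgeR's quasi-likelihood test), and the exact test on the 4 libraries gave an adjusted p of 2.44e-26. In the quasi-likelihood fit of these 4 libraries alone the smallest adjusted p of any gene was 0.0745. In shMCT-1 cells the counts of mt-Rnr1 were 1530 and 581 with IgG and 622 and 803 with anti-IL-6R. The 16S RNA, mt-Rnr2, stood at 151, 116, 80.4 and 97.9 CPM (-0.58 ± 0.28, and -0.76 without IgG replicate 2). Both rRNAs carry short or no poly(A) tails, and the part of poly(A) selection in these values was not tested.

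Of the 10 genes that the exact test called, which were looked at after their values were seen, 9 share sequence with other gene models. The share of each model's 31-base words that occurs in transcripts of other genes on either strand was 45.4% for B430218F22Rik, 70.4% for Zc3h11a and 71.3% for C030014I23Rik, and between 94.0% and 100% for Gm28439, Gm28539, Gm47204, Gm14434, Gm49345 and Rpl31-ps9. It was 0.00% for mt-Rnr1. RSEM divides reads that match several transcripts by likelihood, so a count of such a model and that of its partner were added up.

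C030014I23Rik and Gm47204 overlap on opposite strands of chromosome 9 (44468344 to 44482180 and 44477928 to 44479759). C030014I23Rik had 47, 35, 2 and 0 counts, and Gm47204 had 0, 0, 49 and 52 counts, which is at least 13.4-fold higher when the IgG libraries are set to a floor of 3 counts each. The sum of both was 47, 35, 51 and 52 counts, or 1.66, 1.44, 1.60 and 1.53 CPM. The 2 models thus exchanged their counts between the treatments while their sum stayed within a narrow range, and the strand setting of the counting is not given in the sources used here.

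Gm28539 had 0, 0, 212 and 144 counts, at least 47.6-fold higher against a floor of 3 counts per library, and 92.3% of its words occur in Hira, a histone chaperone gene that it overlaps on chromosome 16. Hira and Gm28539 together stood at 79.8, 77.0, 79.5 and 80.4 CPM. In shMCT-1 cells Gm28539 had 117 and 25 counts with IgG and 0 and 15 with anti-IL-6R, the opposite order. Zc3h11a, an RNA export factor with a second model of that name, had 796, 787, 1378 and 1405 counts, and together with its partners it stood at 169, 171, 164 and 172 CPM. B430218F22Rik and Mrps30, on opposite strands, together stood at 64.1, 58.9, 62.4 and 60.2 CPM. In each of these sums the treatments overlapped, unlike in the single models. The partners held most of the counts there, so these sums cannot show whether the single models changed.

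Gm28439 had the largest change of the 20 genes, with 1120, 7973, 288 and 387 counts (log2 fold change -4.16 ± 0.77, unadjusted p = 0.000323, adjusted p = 0.999 in edgeR, and -1.95 without IgG replicate 2). It is a pseudogene of 876 bases on chromosome 1, and its whole length occurs without a mismatch in the mitochondrial gene mt-Nd4, a subunit of complex I. Its first 60 bases are printed beside those of mt-Nd4, from the GENCODE M21 transcripts on GRCm38, to show that no read within them can be told apart.

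Gm28439, chr1:24612351-24612410, minus strand: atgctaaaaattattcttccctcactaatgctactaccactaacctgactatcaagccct
mt-Nd4, chrM:10167-10226, plus strand: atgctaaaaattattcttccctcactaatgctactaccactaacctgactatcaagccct

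Counts of mt-Nd4 were 51867, 52768, 55381 and 66693, and the sum of both genes stood at 1868, 2498, 1747 and 1977 CPM. IgG replicate 2 was the highest library in that sum, and IgG replicate 1 lay between the anti-IL-6R libraries. Among all 140 genes at an unadjusted p under 0.05, 37 (26.4%) were pseudogenes, compared with 4.93% of the tested genes, and 92 (65.7%) were protein-coding, compared with 88.0%.

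The response in scramble cells was last set beside that in shMCT-1 cells, whose libraries are separate. Of the 140 genes, 74 (52.9%) had the same sign in shMCT-1, beside 52.2% of all tested genes, and 17 had an unadjusted p under 0.05 there too, 8 of them with the same sign. In shMCT-1 cells 478 genes (3.92%) had an unadjusted p under 0.05, of which 115 were higher (0.942%) and 363 lower (2.97%), and 0 of 12207 were called (0.0%). The test of the difference between the backgrounds called 0 genes (0.0%) in edgeR's quasi-likelihood fit, with 297 (2.43%) at an unadjusted p under 0.05, of which 217 were higher (1.78%) and 80 lower (0.655%) in scramble than in shMCT-1, and a smallest adjusted p of 0.543. DESeq2 called 4 for the difference. The IL-6 family, JAK-STAT and STAT3 target lists had medians of 0.00, -0.01 and 0.03 in shMCT-1.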

How the data were processed

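RNA of 4T1 cells in 4 groups (scramble or shMCT-1, with IgG or anti-IL-6R, 2 libraries each) was sequenced from poly(A)-selected libraries. According to the submitters' processing notes and the study's methods, cutadapt 1.18 served for trimming and STAR 2.7.0d for alignment to mm10, and the authors deposited RSEM's expected counts for each gene, unscaled for library size and length. The expected counts were rounded to whole numbers here. Groups came from the sample titles. Symbols, positions and transcripts came from GENCODE M21, in which 54409 of 54532 identifiers were found.

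Genes above 1 CPM in at least 2 of the 4 scramble libraries were kept. All 8 libraries were fitted as 4 group means with TMM and quasi-likelihood tests in edgeR 4.0.16 (R 4.3.3), and p-values were adjusted by Benjamini-Hochberg over all tested genes. Intervals use the SE and the t quantile of the fit and cover the spread between these libraries. Alternatives were DESeq2 1.42.0, edgeR's exact test, a fit of the 4 scramble libraries, RLE factors, other filters, no mitochondrial genes, a replicate block, offsets for length and GC content (loess span 0.3), thinning and leaving out each library. The fit was tested on simulated data. Dose and time come from the sample labels, and counting error alone limits the floor of 3 counts.

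Named genes were the IL-6 axis and RT-PCR genes with Mcts1, Cd274 and Ppbp, the 10 higher and 10 lower genes of smallest unadjusted p at a mean of at least 5 CPM without overlap, the most abundant member and the 2 of smallest p in each list, and the tested IL-6, JAK-STAT and STAT3 target members. The genes called by the exact test, mt-Rnr2, and the genes shown for IgG replicate 2 were chosen after their values were seen. The members and lists were chosen with earlier results of these data known. One gene of this rule is not reported here by name, though counts and medians over its list include it.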

Additional observations from a re-analysis of the deposited data

How the results depend on the processing

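The count of 0 genes called between anti-IL-6R and IgG in scramble cells stayed at 0 under DESeq2, RLE factors, filterByExpr, the filter on more than 1 CPM in all 4 libraries, the fit of the 4 libraries alone, length and GC offsets, thinning and the omission of mitochondrial genes, with 94 to 198 genes at an unadjusted p under 0.05. The exact test called 10 and the analysis with no filter 65, with 698 at an unadjusted p under 0.05. Of the 65 genes, 44 were among those that pass the filter. Among the 10 higher and 10 lower genes named above, Gm28439, mt-Rnr1, Gm10420, Gm10169 and Gm5148 were called without the filter. Their adjusted p-values there were 6.68e-212, 9.05e-16, 0.00251, 0.00285 and 0.00385 (edgeR's quasi-likelihood test). The others of these genes had 0.0832 or more. With a replicate block 6 were called, 5 of them shared with the exact test, and 315 had an unadjusted p under 0.05. The numbers were not taken as a pairing, since the correlation of same-numbered deviations was 0.12 with 2 pairs. Leaving out 1 library gave 0 to 14 called genes and 47 to 1889 at an unadjusted p under 0.05, the highest values being without IgG replicate 1. The difference between backgrounds had 4 calls in DESeq2, 97 with no filter and 0 to 8 with a library left out. Of the 32 list medians, 4 lay beyond 0.1, compared with 7 with no filter, 2 with filterByExpr, 2 with length and GC offsets and 2 to 6 with a library left out. The cause of these differences was not tested.

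Of 71 named genes, 50 kept their sign throughout. Many of the 71 were picked for no overlap or a small p. For genes without overlap, leaving out a library could hardly change the sign. With length and GC offsets Stat3 became -0.010, Junb -0.030, Irf1 -0.014 and Mcts1 0.080, with no filter Clcf1 became 0.016 and Hspa5 0.0036, and with thinning Epcam became 0.0040. With a library left out, the log2 fold change ranged from -0.014 to 0.15 for Il6ra, -0.066 to 0.0015 for Lif, -0.10 to 0.091 for Clcf1, -0.13 to 0.059 for Adam17, -0.20 to 0.098 for Osmr, -0.057 to 1.04 for Il11, -0.078 to 0.23 for Socs3, -0.029 to 0.54 for Socs1, -0.46 to 0.010 for Ptpn2, -0.23 to 0.086 for Fas, -0.0003 to 0.082 for Junb, -0.015 to 0.085 for Irf1, -0.11 to 0.47 for Lcn2, -0.10 to 0.014 for Myc, -0.24 to 0.16 for Epcam, -0.21 to 0.13 for Mcts1, -0.043 to 1.26 for Rps29, -0.12 to 0.97 for Rpl39 and -0.22 to 0.13 for Mki67. With a library left out, the lone one of its group was assumed to vary like the other groups. Depth limits Il6, Cd274 and the receptors with few counts.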
